A study of Mus musculus with 4 samples.

Results

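The genes described here are 39 interferon-stimulated genes, interferon receptor chains, interferon regulatory factors and RNA sensors, taken by gene symbol from the 54532 genes of the deposited count table. Epidermal stem cells (EpSCs), the progenitors of the skin's keratinocytes, came from C57BL/6 mice and were kept in EpiLife medium with HKGS supplement. Treated cells were given 30 μg/mL ALP for 48 h, an abbreviation taken to mean the polysaccharide of burdock (Arctium lappa L.) in the series title, and control cells were given 0.06% DMSO for the same time. Each group had 2 libraries, named A and B only to tell them apart, and the labels do not say whether the ALP cultures also contained DMSO. Whether the 2 libraries of a group are separate cultures or animals is not stated either, and p-values therefore reflect the spread among these libraries alone, which could be technical.

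Interferons are secreted proteins that alert cells to viruses. Type I interferons bind a receptor made of IFNAR1 and IFNAR2 and act through the complex ISGF3, which contains STAT2 and IRF9, whereas interferon gamma binds IFNGR1 and IFNGR2. ISGF3 and the IRF proteins bind an element in promoters called the ISRE and switch on antiviral genes, and viral RNA inside the cell is recognised by the helicases RIG-I (Ddx58) and MDA5 (Ifih1), which signal to IRF3 and IRF7 to make more interferon.

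Of the 39 genes, 27 had enough counts to be tested and 12 were too low to measure. By edgeR's quasi-likelihood test 5 of the 27 were called at an adjusted p under 0.05, which is 18.5%, whereas 30.9% of all 14056 genes tested were called. Irf1 and Ddx58 were higher in ALP, and Irf9, Ifit1 and Ifi27 were lower. Ifit1, with 3 counts in each ALP library, passed the filter only through the controls, so its call could hardly have gone the other way. Among all genes tested, 18% were called higher and 12.9% lower. Irf1 and Ddx58 were 1.84-fold and 2.01-fold as high in ALP as in control, and Irf9 and Ifi27 were 2.58-fold and 3.38-fold lower. The median log2 fold change of the 27 was -0.18, and that of all genes tested was -0.00. The first of these was -0.15 without ALP A, -0.06 without ALP B, -0.215 without control A and 0.00 without control B. In bulk RNA, fewer cells of a type and less RNA per cell cannot be told apart.

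All 5 calls rested on having both control libraries. When control A or control B was dropped, edgeR called 0 genes of any kind, although 3388 genes without control A and 4101 without control B had an unadjusted p under 0.05. The 5 genes kept their direction then, but their groups do not overlap, so dropping a control library could hardly turn it. Without ALP A, when the ALP group is a single library assumed to vary like the controls, 14 of the 27 were called, 4 higher and 10 lower, beside 7533 of all 14056 genes, 3829 higher and 3704 lower. Without ALP B 6 of the 27 were called, 3 higher and 3 lower, beside 5062 of all genes, 2773 higher and 2289 lower.

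Promoter sequence of 4 of the genes is shown because it holds letters that resemble the ISRE or, in Irf1, a STAT-binding element. Use of these elements in the cells was not measured. Windows of 80 bases are written 5′ to 3′ on the gene's strand, from RefSeq (GRCm38.p6). Capitals mark an ISRE-like motif, defined as a pair of GAAA separated by any 2 bases (or the same with TTTC, on the other strand), in Ddx58, Ifit1 and Isg15. In Irf1 they mark a STAT-like motif, TTCNNNGAA.
Ddx58, chr4:40239806-40239885, minus strand: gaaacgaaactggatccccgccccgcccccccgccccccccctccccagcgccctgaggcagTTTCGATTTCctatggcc
Ifit1, chr19:34640764-34640843, plus strand: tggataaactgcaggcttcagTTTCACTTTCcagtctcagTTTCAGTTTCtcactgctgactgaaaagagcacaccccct
Isg15, chr4:156200849-156200928, minus strand: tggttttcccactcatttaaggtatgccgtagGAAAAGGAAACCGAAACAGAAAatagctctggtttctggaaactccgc
Irf1, chr11:53769889-53769968, plus strand: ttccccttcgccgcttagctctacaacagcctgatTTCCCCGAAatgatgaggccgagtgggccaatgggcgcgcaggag
The Ddx58 match began 3 bases after the start of transcription, those of Ifit1 at -104 and -85, and the 3 overlapping ones of Isg15 at -78, -72 and -66. The Irf1 match began at -90.

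Both strands of 300 bases, 250 before and 50 after each start, were searched in the promoters of the 29 genes that have an entry. The ISRE-like motif was in 14 of these 29, and in 3.99% of the 27025 genes with an entry. It was in 10 of the 23 tested genes and in 4 of the 6 genes too low to measure. It was in 1 of 2 genes called higher (Ddx58) and in 1 of 2 called lower (Ifit1, not Irf9). Ifit1 was tested only because its controls passed the filter, so these counts by class compare nothing. TTCNNNGAA was in 7 of the 29, and in 9.55% of all genes with an entry. A match describes letters in this window and is not evidence of binding.

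**Figure D1:**
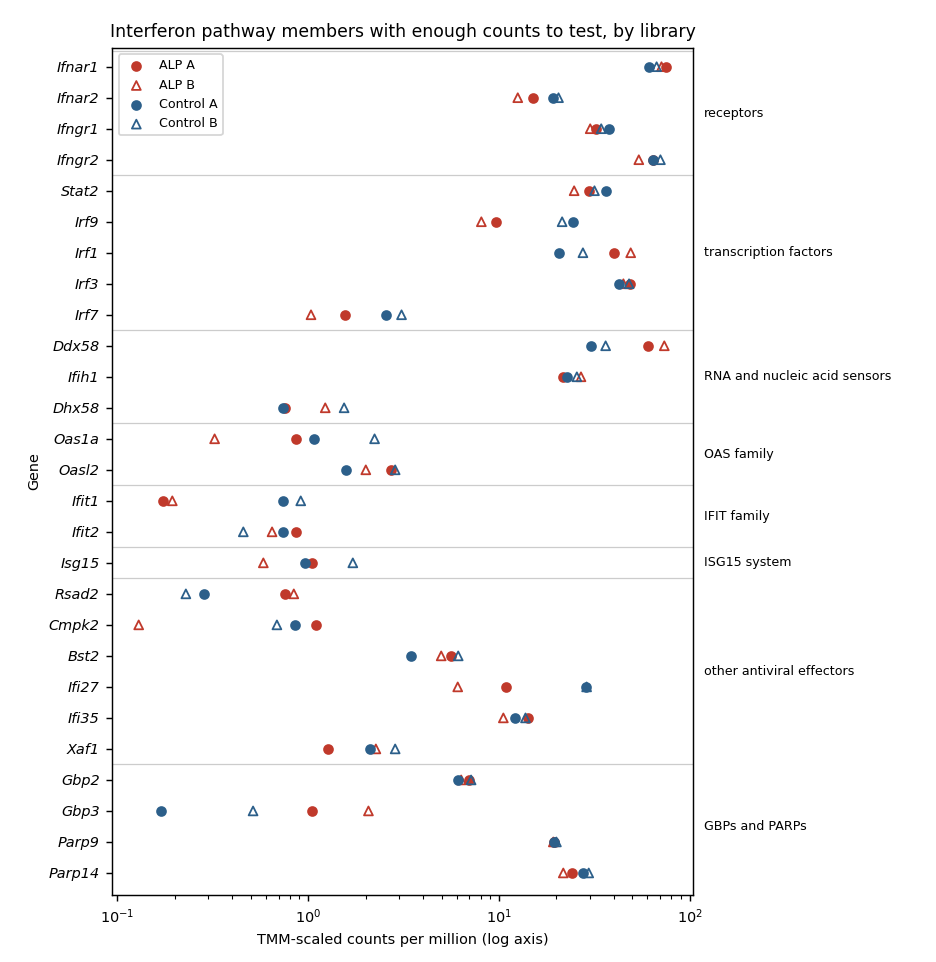
Each row is a tested gene and each point a library, in TMM-scaled CPM (counts per 1000000) on a log axis (ALP in red, control in blue; A filled, B open). Receptor chains lie between 12.5 and 75.3, and the antiviral effectors Ifit1, Ifit2, Isg15, Rsad2, Cmpk2 and Oas1a between 0.129 and 2.23. Other effectors lie higher, with Bst2, Ifi35 and Ifi27 between 3.45 and 28.8.

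The 4 receptor chains were all measured, and edgeR called 0 of them, 1 having an unadjusted p under 0.05. DESeq2 called 0 and limma-voom 1. Of all 14056 genes tested, edgeR called 30.9%, and 6552 had an unadjusted p under 0.05. Ifnar2, the signalling chain that carries STAT2, measured 15.1 and 12.5 CPM (counts per 1000000, TMM-scaled) in ALP, against 19.1 and 20.5 in control. The groups did not overlap, the log2 fold change was -0.52 ± 0.16 (SE, n = 2 per group), and the adjusted p was 0.0539. Ifnar2 was called under 4 alternatives, with adjusted p-values of 0.0454 by limma-voom, 0.0449 with upper-quartile scaling, 0.041 with a filter of 10 CPM and 0.00356 without ALP A. Its partner Ifnar1 measured 75.3 and 71.0 CPM in ALP and 61.3 and 67.0 CPM in control, a log2 difference of 0.19 ± 0.10 (adjusted p = 0.173). The interferon gamma receptor chains had adjusted p-values of 0.195 (Ifngr1) and 0.285 (Ifngr2). Ifngr1 measured 32.1 and 30.1 CPM in ALP against 37.6 and 34.3 in control, and Ifngr2 measured 64.3 and 54.0 CPM in ALP against 64.1 and 70.1 in control.

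Of the 5 transcription factors 2 were called, in opposite directions (40%, beside 30.9% of all genes tested). Irf9, the DNA-binding subunit of ISGF3 (chromosome 14, 55603571 to 55610030, GRCm38), measured 9.66 and 8.08 CPM in ALP and 24.4 and 21.4 CPM in control. Both ALP libraries lay far below both controls. Irf9 fell by 1.36 ± 0.17 on the log2 scale (adjusted p = 0.0149), and by between 1.24 and 1.51 with any library left out. Other genes shared this adjusted p, the smallest reached. Ripk3, described below, was 1 of them and had a smaller unadjusted p by edgeR (0.000193, against 0.000245 for Irf9). Exons of Irf9 share 2.3% of their bases with Rnf31 on the same strand. Rnf31 had 2007 counts over the 4 libraries, against 1097 for Irf9. Irf1, a factor that is induced by interferon gamma and by inflammatory signals and activates many antiviral genes (chromosome 11, 53770014 to 53778374), measured 39.9 and 49.0 CPM in ALP and 20.7 and 27.5 CPM in control. Irf1 rose by 0.88 ± 0.18 (adjusted p = 0.0235), with no overlap between groups and a range of 0.68 to 1.10 with any library left out.

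Stat2, the partner of IRF9 in ISGF3, measured 29.8 and 24.8 CPM in ALP and 36.5 and 31.6 CPM in control. The ALP libraries lay below the controls, but the log2 difference of -0.32 ± 0.14 did not pass (adjusted p = 0.138). Irf7, the factor that amplifies type I interferon production, was scarce, with 27 and 16 counts in ALP and 45 and 54 counts in control. The groups did not overlap, and the log2 difference of -1.10 ± 0.33 missed the threshold (adjusted p = 0.0552). Exons of Irf7 share 1.2% of their bases with Phrf1 on the opposite strand, a gene with 8496 counts over the 4 libraries against 142 for Irf7, and strandedness is not given. Irf3, which is present before infection and is activated by the RNA sensors, measured 48.7 and 44.9 CPM in ALP and 42.7 and 48.0 CPM in control. Its libraries interleaved (log2 difference 0.04 ± 0.11, adjusted p = 0.781), and the sign turned under 3 of the 11 alternatives.

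Of the 3 sensors tested, only Ddx58 was called (33.3%, beside 30.9% of all genes tested). Ddx58 encodes RIG-I, the helicase that detects RNA with a 5′ triphosphate (chromosome 4, 40203773 to 40239828), and measured 60.3 and 73.5 CPM in ALP and 30.5 and 36.2 CPM in control. Both ALP libraries were well above both controls, and Ddx58 rose by 1.0 ± 0.15 on the log2 scale (adjusted p = 0.0151), between 0.85 and 1.13 with any library left out. Ifih1 encodes MDA5, the sensor of long double-stranded RNA, and measured 21.7 and 26.9 CPM in ALP and 22.7 and 25.6 CPM in control. The control libraries fell between the ALP ones, the log2 difference was 0.01 ± 0.15 (adjusted p = 0.974), and its sign turned under 5 of the 11 alternatives. Whether Ddx58 and Ifih1 differ in their change was not tested. Dhx58 encodes LGP2, which regulates the other RNA helicases, and lay between 0.752 and 1.23 CPM in ALP and between 0.736 and 1.54 CPM in control (log2 difference -0.21 ± 0.51, adjusted p = 0.775). Zbp1, a sensor of left-handed nucleic acid, was too low to measure, with 3 and 2 counts in ALP and 3 and 7 in control.

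**Figure D2:**
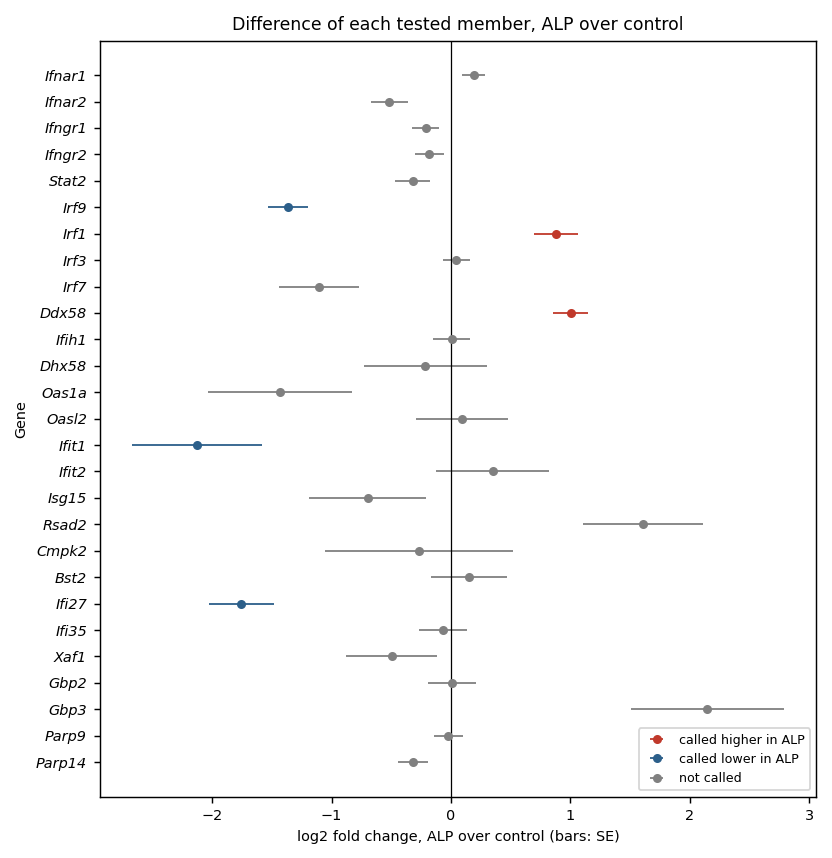
Points are log2 fold changes (ALP over control) of the 27 tested genes from edgeR, bars are SE, and colours mark genes called higher (red), lower (blue) or not called (grey). Ddx58 and Irf1 stand to the right of 0, Irf9, Ifi27 and Ifit1 to the left, and the wide bars belong to scarce genes such as Gbp3 and Cmpk2.

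The OAS enzymes make 2′-5′ oligoadenylates that activate RNase L. Only 2 of the 6 had enough counts, and edgeR called 0, with 0 at an unadjusted p under 0.05 and 0 by DESeq2 or limma-voom. Since edgeR called 30.9% of all genes tested, 0 of 2 says little. Oas1a had 15 and 5 counts in ALP and 19 and 39 in control, with no overlap (log2 difference -1.43 ± 0.60, adjusted p = 0.12). This count is uncertain, since 57.6% of the 50-base stretches of Oas1a also occur in other genes, nearly all in Oas1g. Oasl2 lay between 2.0 and 2.72 CPM in ALP and between 1.59 and 2.86 in control (log2 difference 0.10 ± 0.38, adjusted p = 0.869). Too low to measure were Oas1g (8 and 2 counts in ALP, 8 and 10 in control), Oas3 (4 and 2 in ALP, 7 and 6 in control), Oasl1 (1 and 0 in ALP, 0 in both controls) and Oas2, which had 0 counts in all 4 libraries.

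The IFIT proteins bind viral RNA and are among the most strongly interferon-induced proteins, but here their transcripts were at the edge of detection. Ifit1 (chromosome 19, 34640871 to 34650009) had 3 counts in each ALP library, and 13 and 16 counts in the controls. Each ALP library thus held as many counts as the limit that a count of 0 allows. Ifit1 fell by 2.13 ± 0.54 on the log2 scale by edgeR (adjusted p = 0.0365), and the summed counts of 6 in ALP and 29 in control give a ratio of 0.222 per total, with a 95% interval of 0.0754 to 0.545 that covers counting error only. Ifit1 passed the filter only through the control libraries, so it would not have been tested had the controls been as low as ALP. DESeq2 gave it no adjusted p. Ifit2 had 15 and 10 counts in ALP and 13 and 8 in control, which overlap (log2 difference 0.35 ± 0.48, adjusted p = 0.601). Ifit3 had 1 and 0 counts in ALP and 0 in both controls, and its close copy Ifit3b had 0 counts in all 4 libraries, with 51.2% of the 50-base stretches of Ifit3 shared between them.

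Isg15, the ubiquitin-like modifier, had 18 and 9 counts in ALP and 17 and 30 counts in control. The groups overlapped and the log2 difference of -0.70 ± 0.49 did not pass (adjusted p = 0.312). Isg15 was the only gene of the ISG15 system tested by edgeR, and its unadjusted p was not under 0.05. edgeR, DESeq2 and limma-voom called 0 of this system, beside 30.9% of all genes tested by edgeR. Usp18, which removes ISG15 from proteins and restrains IFNAR2 signalling, was too low to measure, with 21 and 7 counts in ALP and 9 and 7 in control. Its total of 44 counts exceeds the 35 of Ifit1, which was tested, but only ALP A passed the filter's 0.575 CPM. Its highest library was ALP A, and the other ALP library had the same count as control B.

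**Figure D3:**
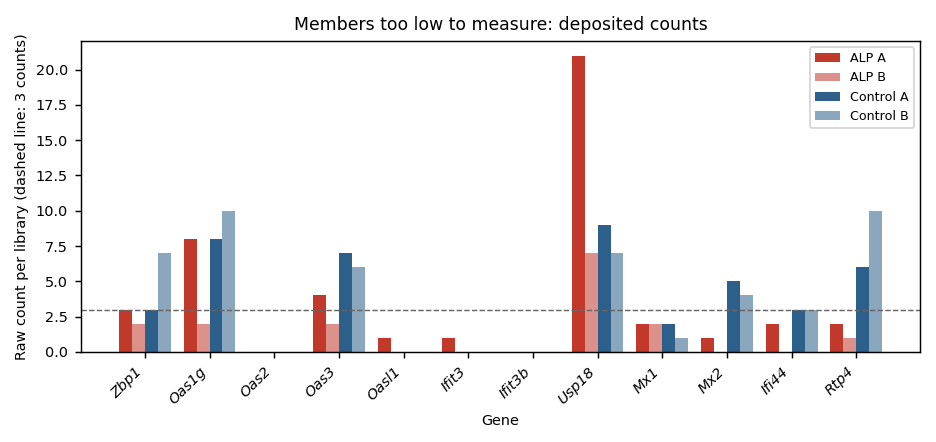
Bars are raw counts per library (ALP in red, control in blue, B paler) of the 12 genes too low to measure, and the dashed line marks 3 counts. The highest bar is 21 counts, Usp18 in ALP A, and Oas2 and Ifit3b have no counts.

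Ifi27, a mitochondrial protein gene induced by type I interferon (chromosome 12, 103434211 to 103440239), had the highest control level per length of the 39. In CPM per kilobase of gene length it averaged 5.78 in ALP and 19.6 in control, at the 50.8th and 81.6th percentile of all genes tested. Ifi27 measured 10.9 and 6.08 CPM in ALP and 28.7 and 28.8 CPM in control, so the controls were nearly identical while the ALP libraries differed from each other. It fell by 1.76 ± 0.27 on the log2 scale (adjusted p = 0.0151), by 2.25 without ALP A and by 1.40 without ALP B. Rsad2, which encodes the antiviral enzyme viperin, had 13 counts in each ALP library and 5 and 4 counts in the controls. The groups did not overlap, and the log2 difference of 1.61 ± 0.50 missed the threshold (adjusted p = 0.0593). Rsad2 passed the filter only through the ALP libraries.

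Cmpk2, the mitochondrial kinase gene beside Rsad2, had 19 and 2 counts in ALP and 15 and 12 in control. The ALP libraries lay on either side of both controls (log2 difference -0.27 ± 0.79, adjusted p = 0.815). Bst2 encodes tetherin, which holds budding virus at the membrane, and lay between 4.98 and 5.61 CPM in ALP and between 3.45 and 6.11 in control (log2 difference 0.15 ± 0.32, adjusted p = 0.746). Ifi35 lay between 10.5 and 14.1 CPM in ALP and between 12.1 and 13.8 in control (log2 difference -0.07 ± 0.20, adjusted p = 0.815), and Xaf1, a gene linked to apoptosis, between 1.27 and 2.26 in ALP and between 2.10 and 2.86 in control (log2 difference -0.50 ± 0.38, adjusted p = 0.353). Too low to measure were Mx1 and Mx2, genes of a family of antiviral GTPases, Ifi44 and the chaperone gene Rtp4. Mx1 had 2 counts in each ALP library and 2 and 1 in control, and Mx2, a polymorphic pseudogene in the deposited table, had 1 and 0 in ALP and 5 and 4 in control. Ifi44 had 2 and 0 counts in ALP and 3 in each control, and Rtp4 had 2 and 1 in ALP and 6 and 10 in control.

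Of the guanylate-binding proteins and PARPs, edgeR called 0 of 4, with 2 at an unadjusted p under 0.05, and DESeq2 and limma-voom called 0. Among all 14056 genes tested, edgeR called 30.9%, and 6552 had an unadjusted p under 0.05. Gbp3, an interferon gamma-induced GTPase gene, had 18 and 32 counts in ALP and 3 and 9 in control. The groups did not overlap, the log2 difference was 2.15 ± 0.64 (adjusted p = 0.0533), and Gbp3 too passed the filter only through the ALP libraries. Its neighbour Gbp2 lay between 6.34 and 7.0 CPM in ALP and between 6.12 and 7.14 in control (log2 difference 0.01 ± 0.20, adjusted p = 0.974). Parp14, an ADP-ribosyltransferase gene, measured 24.1 and 21.7 CPM in ALP and 27.6 and 29.5 in control, without overlap (log2 difference -0.32 ± 0.12, adjusted p = 0.0996). Parp9 measured 19.5 and 19.3 CPM in ALP and 19.4 and 19.99 in control (log2 difference -0.02 ± 0.12, adjusted p = 0.907). Exons of Parp9 share 9.4% of their bases with Dtx3l on the opposite strand, and those of Ifi35 share 16.8% with Gm11626, which had 2 counts.

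Over the 27 tested genes, 14 did not overlap between groups, 5 with both ALP libraries above both controls and 9 below, which is 51.9%. Among all genes tested 75.7% did not overlap, 38.2% with ALP above and 37.5% below. Only 20 of the 27 passed the filter through both groups. Summed over the 39 genes the level was 493 and 476 CPM in ALP and 471 and 508 CPM in control, and these overlap.

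In level per kilobase the genes differed widely. Ifngr2 averaged 15.7 CPM per kilobase in ALP and 17.8 in control, Irf3 13.6 in ALP and 13.2 in control, and Ifnar1 12.3 in ALP and 10.8 in control. Irf1 averaged 11.2 CPM per kilobase in ALP and 6.06 in control, and Ddx58 9.49 in ALP and 4.73 in control. Ifngr2, Irf3 and Ifnar1 thus stood near the top of the set in both groups, and Irf1 and Ddx58 were nearer to them in ALP than in control. Irf9 averaged 1.65 CPM per kilobase in ALP and 4.25 in control, at the 27.1th and 43.7th percentile of all genes tested. Isg15 averaged 1.07 CPM per kilobase in ALP and 1.77 in control, and Ifit1 0.0692 in ALP and 0.311 in control.

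Outside the 39, 107 further genes of the interferon and nucleic acid sensing pathway were taken from textbook knowledge, and 106 had an entry. Of these 66 were tested and 18 called, 12 higher and 6 lower (27.3%, beside 30.9% of all genes). Without ALP A 38 were called, 17 higher and 21 lower, beside 7533 of all genes. With a filter of 10 CPM in 2 libraries 13 of 42 were called, 6 higher and 7 lower. That filter gave 3728 calls among all 9385 genes tested, 2026 higher and 1702 lower. Without either control library 0 were called, with 16 (without control A) and 21 (without control B) at an unadjusted p under 0.05. All 10 interferon ligand genes listed were too low, 9 with 0 counts in every library and Ifnk with 1 and 0 counts in ALP and 3 and 0 in control. edgeR tested 0 of them, so no call was possible.

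Of 10 tested receptor chains, kinases, STATs and IRFs beyond the 39, 0 were called higher and 3 lower. That is 30%, beside 30.9% of all genes tested (18% higher and 12.9% lower). Ifnlr1, the receptor chain specific to interferon lambda, an interferon of epithelia, measured 11.7 and 8.60 CPM in ALP and 22.0 and 20.5 in control and fell by 1.07 ± 0.19 (adjusted p = 0.0176). Tyk2, the kinase bound to IFNAR1, measured 59.7 and 55.3 CPM in ALP and 75.0 and 72.5 in control (log2 fold change -0.36 ± 0.09, adjusted p = 0.0368). Stat3 measured 222 and 152 CPM in ALP and 318 and 311 in control (log2 fold change -0.75 ± 0.18, adjusted p = 0.0324). All 3 had both ALP libraries below both controls, as did 37.5% of all genes tested. Irf5 measured 3.59 and 1.88 CPM in ALP and 5.95 and 5.60 in control and did not pass (adjusted p = 0.0592). Its exons share 14.1% of their bases with Tnpo3 on the opposite strand (10024 counts over the 4 libraries, against 294 for Irf5).

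Of 17 tested adaptors, kinases and other sensors, 6 were called higher and 1 lower. That is 41.2%, beside 30.9% of all genes tested (18% higher and 12.9% lower). Ripk3, a kinase gene that can act below ZBP1 and TLR3, measured 50.8 and 66.0 CPM in ALP and 21.2 and 23.8 in control and rose by 1.38 ± 0.16 (adjusted p = 0.0149). Ikbke, an IRF3 kinase gene, measured 59.0 and 74.5 CPM in ALP and 36.8 and 37.9 in control and rose by 0.84 ± 0.14 (adjusted p = 0.0157). Traf3, an adaptor gene below RIG-I and TLR3, measured 163 and 175 CPM in ALP and 111 and 127 in control and rose by 0.51 ± 0.10 (adjusted p = 0.0214). In each of these genes both ALP libraries stood above both controls, as in 38.2% of all genes tested. Tlr3, the endosomal sensor of double-stranded RNA, measured 7.41 and 12.4 CPM in ALP and 2.83 and 3.94 in control and rose by 1.54 ± 0.33 (adjusted p = 0.0257). Ticam1, its adaptor gene, was the gene called lower, at 15.2 and 8.47 CPM in ALP and 26.8 and 22.8 in control (log2 fold change -1.06 ± 0.28, adjusted p = 0.0403). The DNA-sensing pair Tmem173 (STING) and Mb21d1 (cGAS) also rose. Tmem173 measured 5.90 and 7.37 CPM in ALP and 3.28 and 2.40 in control (log2 fold change 1.22 ± 0.27, adjusted p = 0.0264), and Mb21d1 4.11 and 4.59 in ALP and 2.10 and 2.46 in control (0.93 ± 0.25, adjusted p = 0.0415).

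**Figure D4:**
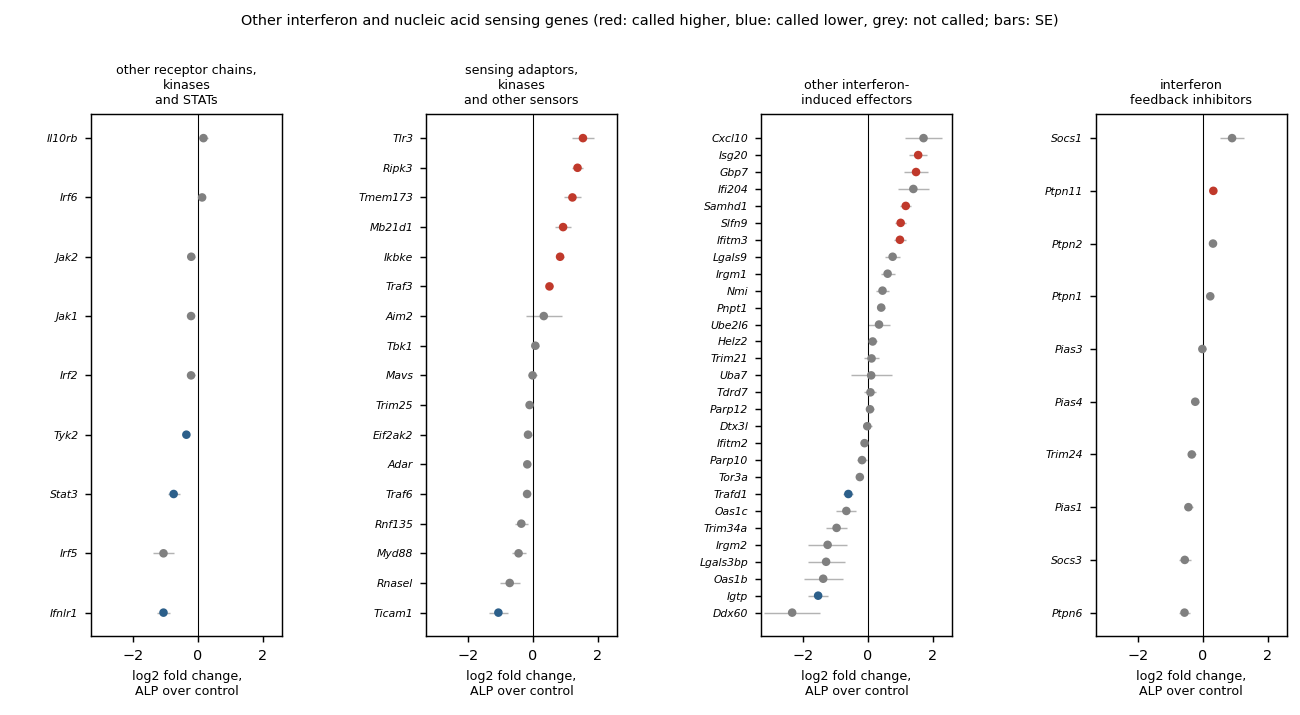
Points are log2 fold changes (ALP over control) of tested pathway genes outside the 39, bars are SE, and red, blue and grey mark genes called higher, lower or not called. Among adaptors and sensors 6 are red and 1 is blue, and among the receptor chains, kinases and STATs 3 are blue. Of all genes tested 18% were called higher and 12.9% lower.

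Among 29 tested effectors beyond the 39, 5 were called higher and 2 lower. That is 24.1%, beside 30.9% of all genes tested, and 27 others were too low. Among these 27, Trex1 had 0 counts, but it shares 100% of its exon bases with Atrip on the same strand (1408 counts over the 4 libraries). Its count therefore does not show its level. Samhd1, which depletes nucleotides that viruses need, measured 37.7 and 46.9 CPM in ALP and 16.9 and 20.6 in control and rose by 1.17 ± 0.17 (adjusted p = 0.0151). Slfn9 measured 44.6 and 57.3 CPM in ALP and 23.0 and 27.4 in control and rose by 1.01 ± 0.16 (adjusted p = 0.0157). Isg20, an exonuclease gene, measured 4.80 and 6.27 CPM in ALP and 1.76 and 2.0 in control and rose by 1.55 ± 0.27 (adjusted p = 0.0174). The ALP libraries of these genes did not overlap with control, as in 75.7% of all genes tested. Ifitm3, whose product blocks virus entry, measured 78.2 and 101 CPM in ALP and 37.9 and 52.0 in control and rose by 0.99 ± 0.19 (adjusted p = 0.0208). The fifth gene called higher was the GTPase gene Gbp7, at 5.27 and 6.27 CPM in ALP and 1.36 and 2.74 in control (log2 fold change 1.49 ± 0.36, adjusted p = 0.0328). The genes called lower were Igtp, another interferon gamma-induced GTPase gene, and Trafd1, a regulator of innate immune signalling. Igtp measured 3.24 and 1.75 CPM in ALP and 7.02 and 7.54 in control (log2 fold change -1.53 ± 0.32, adjusted p = 0.0235). Exons of Igtp share 8.0% of their bases with Irgm2 on the same strand (165 counts over the 4 libraries, against 339 for Igtp). Trafd1 measured 45.1 and 34.1 CPM in ALP and 58.8 and 61.2 in control (log2 fold change -0.60 ± 0.15, adjusted p = 0.0354). Both ALP libraries of Igtp and Trafd1 lay below both controls.

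Of 10 tested feedback inhibitors 1 was called (10%, beside 30.9% of all genes tested). It was the phosphatase gene Ptpn11, at 345 and 376 CPM in ALP and 277 and 297 in control (log2 fold change 0.33 ± 0.09, adjusted p = 0.0441). Next by p and not called were Pias1, at 42.3 and 34.7 CPM in ALP and 54.4 and 50.04 in control (adjusted p = 0.0526), Ptpn6, at 15.04 and 11.7 in ALP and 19.0 and 20.4 in control (adjusted p = 0.0564), and Ptpn2, at 39.6 and 37.4 in ALP and 30.5 and 31.2 in control (adjusted p = 0.0649).

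Library totals lay between 15766244 and 17430345 counts, and 3 counts, the limit that a count of 0 allows, correspond to 0.172 to 0.190 CPM before scaling. The cells carried keratinocyte markers in all libraries, summing over 6 genes to 36147 and 29850 CPM in ALP and 48103 and 48336 in control. Most of that sum is Krt5 and Krt14, which were not called, while Itga6 and Itgb4 were called higher (log2 fold changes 0.38 and 1.14) and Trp63 and Col17a1 lower (-0.61 and -0.78). The 4 leukocyte markers (Ptprc, Cd52, Coro1a, Laptm5) were all too low, summing to 6 and 9 counts in ALP and 6 and 4 in control, and the T cell markers Cd3e and Cd3d, the Langerhans cell markers Cd207 and H2-Aa and the dendritic cell marker Itgax were at 0 in all libraries. Other markers in the same lists were present. The 4 T cell markers summed to 33 and 40 counts in ALP and 28 and 34 in control, nearly all Thy1, and the 4 Langerhans cell markers to 102 and 36 counts in ALP and 188 and 168 in control, mostly Cd1d1, which was called lower (adjusted p = 0.0482). The 6 macrophage and dendritic cell markers summed to 128 and 85 counts in ALP and 172 and 193 in control, mostly Cd68, which was not called. The 5 melanocyte markers were all measured, at 63.6 and 52.8 CPM in ALP and 60.1 and 56.5 in control. The 6 fibroblast markers summed to 7.93 and 4.46 CPM in ALP and 17.5 and 13.6 in control, with Dcn called lower (log2 fold change -2.56). The 4 endothelial markers summed to 8.79 and 13.96 CPM in ALP and 4.13 and 5.60 in control, nearly all Pecam1, which was called higher (log2 fold change 1.21). The 4 markers of differentiated keratinocytes summed to 820 and 28.3 CPM in ALP and 3214 and 2661 in control, and ALP B was the lowest. Most of that sum is Krt1 and Krt10, which were not called. The ALP libraries differed widely in both (663 and 19.7 CPM for Krt1, 150 and 5.04 for Krt10). Lor and Flg were called lower (log2 fold changes -2.55 and -3.33). The part of any of these markers in the values of the interferon genes was not tested.

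**Figure D5:**
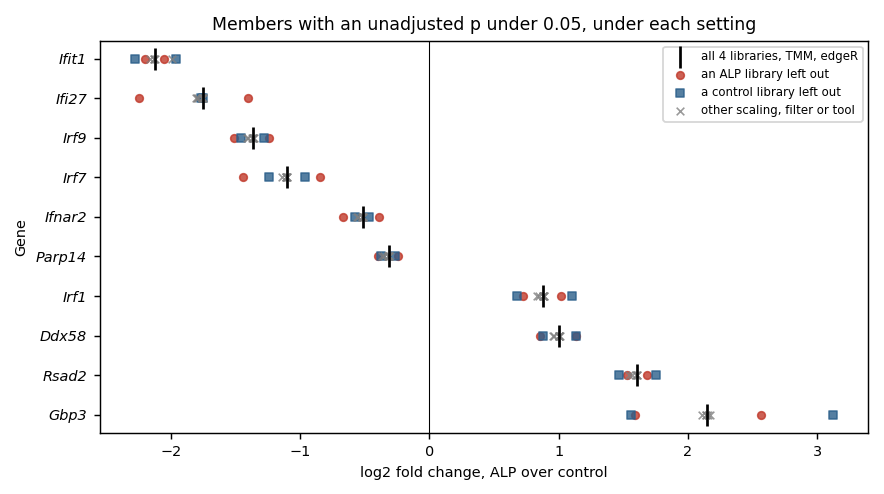
Each line is a gene with an unadjusted p under 0.05. The black tick is the log2 fold change (ALP over control) with all 4 libraries, and the other marks leave out an ALP (red) or control (blue) library or change the scaling, filter or tool (grey). All 10 genes stay on their side of 0. Their groups do not overlap, so leaving out a library could hardly turn them. Ifit1 passed the filter only through the controls, and Rsad2 and Gbp3 only through ALP, which favoured their side. Gbp3 ranges most, between 1.56 and 3.13.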

How the data were processed

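RNA sequencing of 2 ALP and 2 control libraries gave 1 deposited table. Per the submitters' processing notes, the authors aligned with HISAT2 2.0.5, counted with featureCounts 1.5.0-p3 and used GRCh38. All gene identifiers are mouse ones, and the 39 genes have the coordinates of GENCODE M21, so coordinates are given as GRCm38. The deposited counts are whole and not normalized. Levels per kilobase are CPM over the deposited gene length. The 4 deposited FPKM columns were not used. The normalized signal, log2 fold changes and p-values of the authors' deposited table were not used. Kit, strandedness and the counting of multiply mapped reads are not stated.

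The count analysis used edgeR 4.0.16 (R 4.3.3): filterByExpr (minimum count 10, minimum total 15, here about 0.575 CPM in 2 libraries), TMM scaling, and the two-sided quasi-likelihood F test with group alone. Benjamini-Hochberg adjustment ran over all 14056 genes tested, and genes with an adjusted p under 0.05 are called. Residual degrees of freedom were 2, and prior ones had a median of 3.6. SE is the log2 fold change over the square root of F. CPM are TMM-scaled, and folds are fitted. Genes failing the filter are called too low to measure. Scripts were tested on simulated data. Column numbers differ from the sample titles, so columns were assigned to groups only.

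The genes, the lists of other pathway genes and markers, and the tests were chosen with earlier results of these data known. Of the 39, genes called or with an unadjusted p under 0.05 have values for every library, other tested genes values or ranges. From each list of other pathway genes up to 4 with the smallest p are named, and Ticam1, Tmem173, Mb21d1, Gbp7, Igtp and Trafd1 are named outside this rule, after their values were seen. The plot of these lists leaves out a gene that is counted but not reported here. Alternatives were other scalings (median-of-ratios, upper quartile), no filter, a filter of 10 CPM in 2 libraries, DESeq2 1.42.0, limma-voom (limma 3.58.1), each library left out, and, added after seeing the data, edgeR's legacy quasi-likelihood fit. Intervals and floors cover counting error only, since PCR copies of 1 molecule can be counted repeatedly.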

Additional observations from a re-analysis of the deposited data

How the results depend on the processing

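Without the low-count filter edgeR called 0 genes (7068 of 25280 at an unadjusted p under 0.05), 0 of the interferon genes (11 of 37) and 0 of the other pathway genes (38 of 88), and the smallest adjusted p was 0.0524. More genes are tested there. With 1 library left out the calls lay between 0 and 7533 for all genes, 0 and 14 for the interferon genes and 0 and 38 for the other pathway genes. The counts of 0 came without either control library, and the highest without ALP A. The cause was not tested. With the other scalings and filter and by DESeq2, limma-voom and the legacy fit, 4 to 6 of the interferon genes were called. Of all genes, between 3728 (of 9385 tested, 10 CPM filter) and 4741 (of 14056 tested, limma-voom) were called there. The 5 called genes kept their direction under every alternative that fitted them. Their groups do not overlap, so leaving out a library could hardly turn the direction. Ifit1 was also tested only because its controls passed the filter.

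The median log2 fold change of the tested genes was -0.22 with upper-quartile factors, -0.21 without the filter, and between -0.215 and 0.00105 with 1 library left out, the highest without control B. No setting moved the median of all genes by more than 0.0409 in size (-0.0409, upper quartile).

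Of the 27 tested genes 18 kept their sign under every alternative, and 9 genes that were not called turned at least once. All 9 had overlapping groups. Irf3 turned with the 10 CPM filter (-0.0029). Ifih1 turned with upper-quartile factors (-0.030), the 10 CPM filter (-0.040) and limma-voom (-0.0023), and Gbp2 with upper-quartile factors (-0.028). With 1 library left out the log2 difference lay between -0.047 and 0.132 for Irf3, -0.154 and 0.148 for Ifih1, -0.657 and 0.412 for Dhx58, -0.278 and 0.577 for Oasl2, -2.51 and 0.514 for Cmpk2, -0.215 and 0.616 for Bst2, -0.304 and 0.126 for Ifi35, -0.107 and 0.125 for Gbp2, and -0.054 and 0.0011 for Parp9. Depth limits Ifit1, Rsad2, Gbp3 and the 12 genes too low to measure.

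No paired analysis was possible because the columns carry the numbers 2 and 3 in ALP and 1 and 3 in control, share fewer than 2 numbers, and do not match the sample titles.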
